A study of Mus musculus with 8 samples.

Results

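The genes described here are 41 genes of mesenchyme, meninges and extracellular matrix, measured by RNA sequencing in embryonic mouse cortex with and without Mboat7. They were chosen by name for what they encode, and all 41 were present in both count tables, which list 23420 genes at E11.5 and 78298 at E12.5. This choice was made with the differences between genotypes in these same cortices known, so those differences are given as a description of the members and support nothing. By role they comprise 5 fibrillar collagens, 8 basement membrane genes, 4 other collagens, 6 matrix glycoproteins, 3 leucine-rich proteoglycans, 4 matrix-processing genes, 3 signalling genes, and a group of 8 made up of transcription factors and the RNA Dnm3os.

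Mboat7 encodes LPLAT11, an acyltransferase that places arachidonic acid into phosphatidylinositol, and the knockout lacks it in the whole body. Cortices came from Mboat7+/- (heterozygous control) and Mboat7-/- (knockout) embryos of the C57BL/6N background, staged by embryonic day as E11.5 or E12.5 and taken regardless of sex, with 2 embryos per genotype and stage and 8 cortices in all. No wild-type cortex was among these samples, so every control carries 1 knockout allele. The E11.5 and E12.5 libraries were sequenced by different providers on different instruments and counted in separate tables, so stage, provider and table cannot be told apart. The labels give replicates 1 and 2 of each genotype the batch numbers 1 and 2.

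The developing cortex is a neural epithelium that rests on a basement membrane and is covered by meninges, a mesenchymal layer with its own blood vessels. Mesenchymal cells secrete fibrillar collagens, which form load-bearing fibres, while type IV collagen, laminins and nidogens form the sheet-like basement membrane under the pia and around vessels. The meninges also release retinoic acid and the chemokine Cxcl12, which are known to act on the neighbouring cortical cells.

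Total counts per cortex lay between 20799311 and 28189771, and 3 counts, taken as the floor, correspond to 0.106 to 0.144 CPM, the count scaled to a common library size. Mboat7 itself had 32.3 and 33.1 CPM in the E11.5 Mboat7+/- cortices against 39.0 and 34.8 in those labelled Mboat7-/-, and 35.5 and 36.2 against 31.7 and 32.2 at E12.5. Thus its level was not lower in the E11.5 cortices labelled Mboat7-/-, and counts over the whole gene do not show whether the transcript was intact, so every direction below rests on the labels. In addition, E11.5 Mboat7+/- replicate 1 stood apart with 17875 counts of Xist, the RNA of the inactive X chromosome, whereas the other E11.5 cortices had 0 to 2. Cortical neural genes were plentiful in every cortex: a list of 17 summed to 4930 to 6610 CPM, and the dorsal cortical transcription factor Emx1 averaged 61.3 and 42.7 CPM at E11.5 in Mboat7+/- and Mboat7-/- cortices.

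To show how some members are organised in the genome, the sequences below are given for the adjacent collagen IV genes, for Hmcn1 and Postn, the members that both DESeq2 and edgeR's exact test called at E11.5, and for the microRNAs carried by Dnm3os. Each promoter window runs from 250 bases before to 50 bases after a RefSeq transcript start in GRCm38.p6, 5′ to 3′ on the gene's strand, and capitals mark the TATA box letters TATAAA, the CAAT box letters CCAAT and the GC box letters GGGCGG, on either strand. Col4a1 (chr8:11312777-11313076, minus strand) and Col4a2 (chr8:11312555-11312854, plus strand) lie head to head on opposite strands. Only 20 bases lie between their annotated starts, over which the transcripts overlap, and the windows share 78 bases. Hmcn1 lies at chr1:150993386-150993685 on the minus strand. For Postn the downstream of its 2 annotated windows is shown (chr3:54360857-54361156, plus strand), with TATAAA at -26 from the start.
Col4a1: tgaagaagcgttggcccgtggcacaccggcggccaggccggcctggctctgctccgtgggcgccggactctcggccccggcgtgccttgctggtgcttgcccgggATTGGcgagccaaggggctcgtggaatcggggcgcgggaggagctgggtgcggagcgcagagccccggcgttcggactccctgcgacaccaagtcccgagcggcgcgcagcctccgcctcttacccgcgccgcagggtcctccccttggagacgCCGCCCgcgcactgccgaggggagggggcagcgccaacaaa
Col4a2: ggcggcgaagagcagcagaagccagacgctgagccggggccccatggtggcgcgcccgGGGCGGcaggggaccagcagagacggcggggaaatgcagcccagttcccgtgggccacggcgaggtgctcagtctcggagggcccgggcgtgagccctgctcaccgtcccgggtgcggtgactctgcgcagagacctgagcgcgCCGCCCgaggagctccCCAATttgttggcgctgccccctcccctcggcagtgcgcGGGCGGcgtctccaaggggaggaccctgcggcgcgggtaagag
Hmcn1: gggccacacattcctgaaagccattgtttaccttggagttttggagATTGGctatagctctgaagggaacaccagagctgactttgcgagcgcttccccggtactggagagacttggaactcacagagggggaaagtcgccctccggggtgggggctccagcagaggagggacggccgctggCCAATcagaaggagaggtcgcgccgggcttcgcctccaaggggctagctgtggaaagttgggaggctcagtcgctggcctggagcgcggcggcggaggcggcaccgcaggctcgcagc
Postn: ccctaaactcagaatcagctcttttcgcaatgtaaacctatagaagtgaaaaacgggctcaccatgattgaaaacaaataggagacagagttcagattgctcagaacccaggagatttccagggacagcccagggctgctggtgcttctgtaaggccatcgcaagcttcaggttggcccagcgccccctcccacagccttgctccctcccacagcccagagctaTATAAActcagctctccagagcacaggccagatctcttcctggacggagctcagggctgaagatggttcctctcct

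Windows were found for 27 of the 41 members, 29 windows in all, and their letters were set beside the 32851 windows of the whole table. TATAAA was in 3 of the 29 windows, of Col3a1, Postn and Twist1 (10.3%, against 13.6% of all windows). CCAAT was in 13 (44.8%, against 37.4%) and GGGCGG in 17 (58.6%, against 35.7%). CANNTG, the letters that basic helix-loop-helix factors such as Twist1 bind, was in 13 (44.8%, against 72.3%). A match describes the letters of a window and marks no binding site.

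Dnm3os is a long RNA on the plus strand of chromosome 1, transcribed from within Dnm3 on the opposite strand, and it carries 2 microRNA hairpins. Their mature forms, from RefSeq (GRCm38.p6), are written 5′ to 3′ with the seed, bases 2 to 8, in capitals. The hairpin of Mir199a-2 gives miR-199a-5p (chr1:162217844-162217866) and miR-199a-3p (chr1:162217883-162217904), and that of Mir214 gives miR-214-5p (chr1:162223397-162223418) and miR-214-3p (chr1:162223438-162223459).
mmu-miR-199a-5p: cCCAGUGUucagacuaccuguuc
mmu-miR-199a-3p: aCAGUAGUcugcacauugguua
mmu-miR-214-5p: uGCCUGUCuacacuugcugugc
mmu-miR-214-3p: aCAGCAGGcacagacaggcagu
The 4 seeds differ from one another. Mature microRNAs are not measured by poly(A) RNA sequencing, and only the host RNA has values below.

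Members were expressed at very different levels in the control cortices. Compared per kilobase of transcript, the E11.5 Mboat7+/- mean was highest for Sparc (161 CPM per kilobase), a protein that binds collagen, followed by Col3a1 (107), Col4a1 (76.3), Col1a2 (70.1), Col1a1 (61.1), Col4a2 (55.8) and Fn1 (41.8). At the other end were Dnm3os (2.36), Col12a1 (2.27), Hmcn1 (0.661) and Aldh1a2 (0.371). In E12.5 Mboat7+/- cortices Sparc (101), Col3a1 (46.1) and Col4a1 (42.4) again had the highest values and Twist2 (0.197), Hmcn1 (0.165) and Dnm3os (0.057) the lowest. In both tables, therefore, Sparc, Col3a1 and Col4a1 had the highest levels per length.

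Together the 41 members held 0.487% and 0.473% of the deposited counts in the E11.5 Mboat7+/- cortices, and 0.254% and 0.215% in the E12.5 ones. The mean CPM in Mboat7+/- cortices was lower at E12.5 than at E11.5 for 38 of 41 members, and for 22 it was below 50 percent of the E11.5 value. No share over all genes stands beside these counts, so they are not read as particular to the members. The gap was widest for Dnm3os, Twist2 and Twist1, of which the latter, a factor of loose mesenchyme, had 55.0 and 56.7 CPM at E11.5 against 3.84 and 3.10 at E12.5, while Dnm3os had 15.8 and 21.7 against 0.672 and 0.231. Dcn was an exception, with 9.14 and 10.2 CPM at E11.5 and 17.5 and 10.7 at E12.5. These differences are between stages that also differ in provider and table, and in a bulk sample fewer cells of a type and less RNA per cell cannot be told apart.

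**Figure D1:**
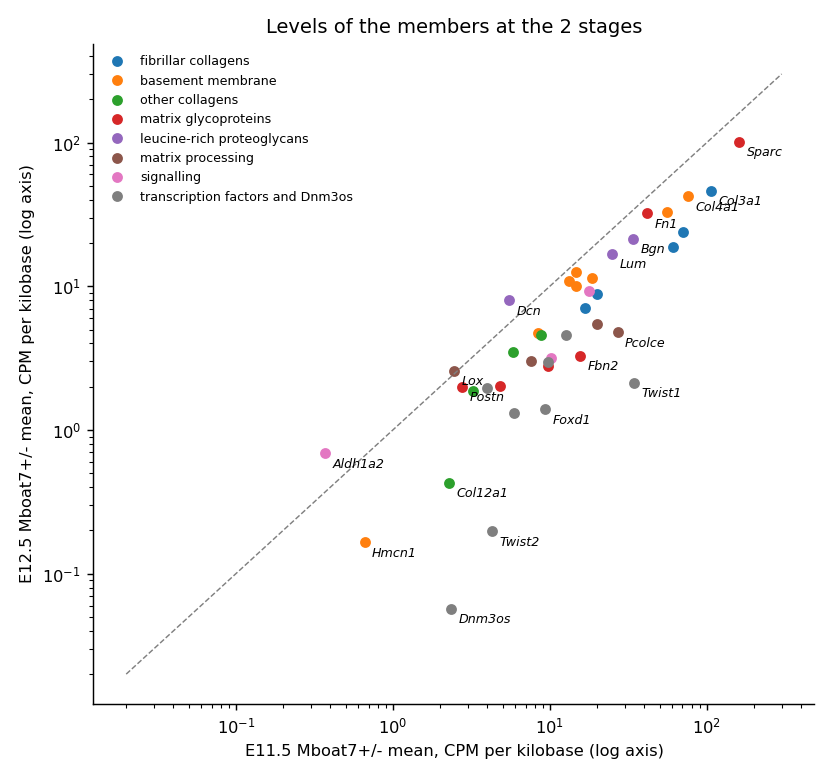
Mean level of each member in Mboat7+/- cortices at E11.5 (x axis) and E12.5 (y axis), both in CPM per kilobase of transcript on log axes, coloured by role; the dashed line marks equal values. Points for 38 of 41 members lie below the line, with Dnm3os, Twist2 and Twist1 farthest below it and Dcn, Lox and Aldh1a2 above it.

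At E11.5, the members had higher values in the cortices labelled Mboat7-/-. Their summed level was 4910 and 4760 CPM in Mboat7+/- replicates 1 and 2, and 5950 and 5870 CPM in Mboat7-/- replicates 1 and 2. For 37 of 41 members the log2 fold change was above 0, and the median was 0.31, against -0.006 over all 14935 genes tested, of which 49.0% were above 0. In 29 members both Mboat7-/- cortices exceeded both Mboat7+/- cortices, while 23.1% of all genes did so, and in no member did both lie below, while 23.3% of all genes did. The median over members of the log2 deviation from the control mean was 0.39 and 0.31 in Mboat7-/- replicates 1 and 2. The pooled SD of such medians between cortices of a genotype was 0.037. That SD rests on 2 cortices per genotype, and the control deviations mirror each other because they are taken from their own mean. Opposite differences of single members cancel in such medians, so it is no measure of the spread between embryos. A gene was called when it had a Benjamini-Hochberg adjusted p under 0.05 and differed by at least 1 on the log2 scale, and edgeR's quasi-likelihood test called no member (0 of 41, background 0.0%), with a smallest adjusted p of 0.183. At an unadjusted p under 0.05, 29 members were counted, all higher, against 13.8% of all genes in either direction and 7.94% higher. DESeq2 called 2 members (12 of all 14935 genes, background 0.0803%) and edgeR's exact test 2 (41 of all genes, background 0.275%). Without a filter on low counts edgeR called 3 members (41 of 18103 genes, background 0.226%), and with the batch number as a block also 3 (30 of 14935 genes, background 0.201%). Members at an adjusted p under 0.05 whatever their fold numbered 15 with DESeq2 (background 1.19%), 13 with the exact test (1.18%), 21 without a filter (1.75%) and 21 with the block (2.34%). In the blocked fit the log2 fold changes of those 3 were 1.02 for Hmcn1, 1.15 for Postn and 2.68 for Aldh1a2, with adjusted p of 0.0161, 0.00788 and 0.0448 in edgeR's quasi-likelihood test. These numbers describe the contrast that was in view when the members were chosen, and nothing is read from them about the list.

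Pairing the same E11.5 cortices by batch number gave a difference in each pair. The 29 members higher without overlap are higher in any such pairing, so the split adds no separate support. Batch 1 gave a median of 0.35, with 33 of 41 members higher in the Mboat7-/- cortex, and batch 2 gave 0.31, with 39 of 41 higher. The 2 Mboat7-/- cortices were not alike, however: 25 members had their highest value of the stage in replicate 1 and 13 in replicate 2. Replicate 1 also held the lowest value of the stage for 7 members, namely Col1a1, Col5a2, Col6a1, Col6a3, Sparc, Dcn and Bgn, whereas replicate 2 held the lowest for 0. Without Mboat7+/- replicate 1, the cortex with Xist, the median was 0.37.

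**Figure D2:**
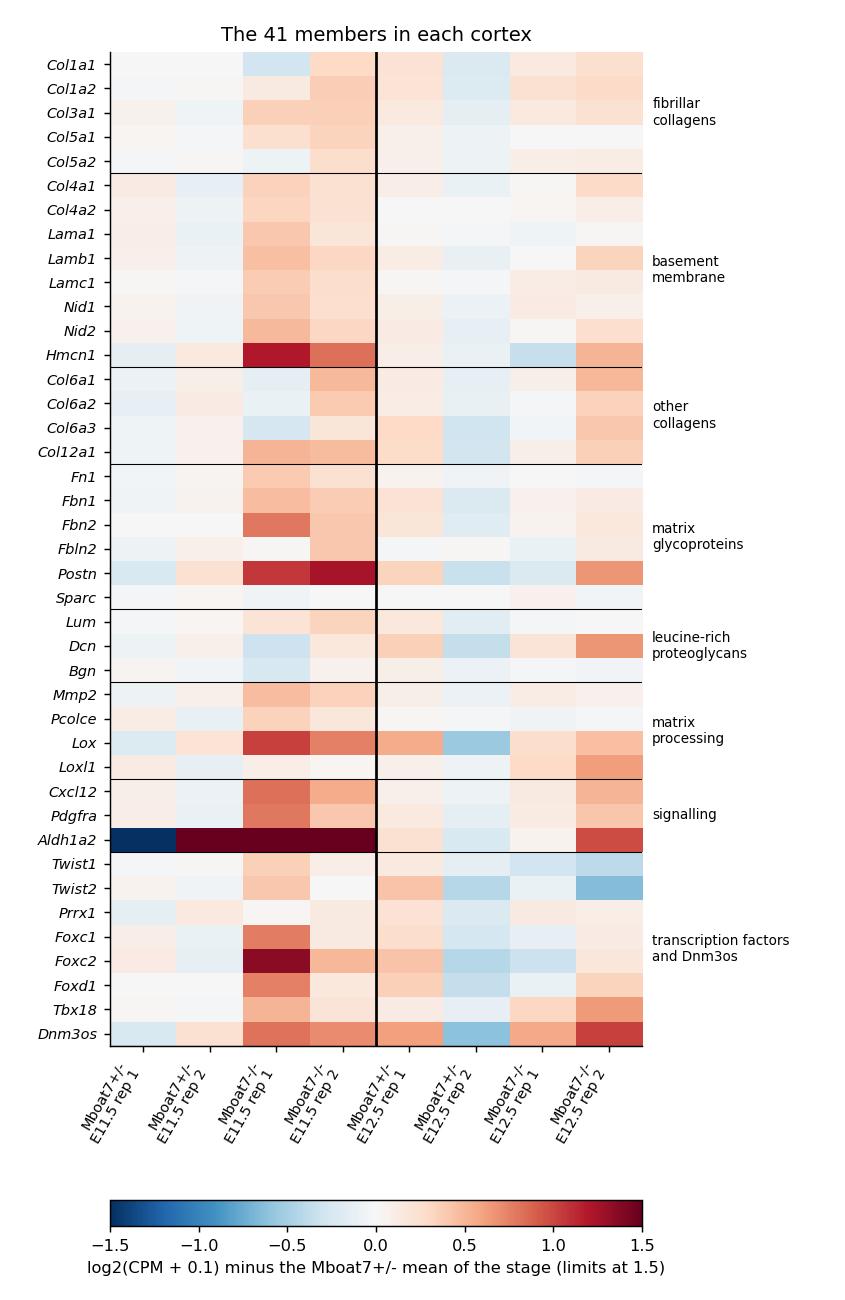
Each row is a member, grouped by role, and each column a cortex; colour gives log2(CPM + 0.1) minus the Mboat7+/- mean of the same stage, with limits at -1.5 and 1.5. In the E11.5 Mboat7-/- columns 33 and 39 of 41 members lie above the control mean, and at E12.5 Mboat7+/- replicate 2 is the lowest column for 34 members.

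Among the fibrillar collagens, the E11.5 difference was clearest for Col3a1 and smallest for Col1a1. Col3a1, the collagen of pliable connective tissue, had 621 and 569 CPM in Mboat7+/- and 762 and 764 in Mboat7-/- cortices, with a log2 fold change of 0.36 ± 0.061 (SE, n = 2 per genotype). Col1a1, a chain of the collagen of skin and bone, had 363 and 361 CPM against 297 and 445. The Mboat7-/- values of Col1a1 thus lay on both sides of the controls, and its log2 fold change of 0.03 ± 0.15 became -0.29 without Mboat7-/- replicate 2. Its partner chain Col1a2 (0.26), and the fibril-nucleating Col5a1 (0.29), did not overlap between genotypes, whereas Col5a2 (0.10), the neighbour of Col3a1 on chromosome 1, did.

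All 8 basement membrane members were higher without overlap. Col4a1, which with Col4a2 builds the collagen IV network and shares the promoter region printed above, had 548 and 462 CPM in Mboat7+/- and 639 and 592 in Mboat7-/- cortices, a log2 fold change of 0.29 ± 0.085. Col4a2 had 379 and 341 against 450 and 422, a log2 fold change of 0.28 ± 0.071. Both chains were highest in Mboat7-/- replicate 1 and lowest in Mboat7+/- replicate 2. The laminin chains Lama1 (0.29), Lamb1 (0.39) and Lamc1 (0.32), which polymerise on the cell surface, and the nidogens Nid1 (0.33) and Nid2 (0.40), which link laminin to collagen IV, fell in the same range. Hmcn1, a very large matrix protein whose transcript of 17908 bases is the longest of the list, had 10.7 and 13 CPM against 27.3 and 21.0, a log2 fold change of 1.03 ± 0.18. Its Mboat7-/- values were well apart from the control values, and it was named by DESeq2, edgeR's exact test, the fit without a filter and the blocked fit among the calls.

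The other collagens split between Col12a1 and the collagen VI chains. Col12a1, which coats fibrils, had 24.9 and 27.3 CPM against 37.2 and 36.1, a log2 fold change of 0.49 ± 0.11 without overlap. Col6a2, a chain of the beaded filaments around fibroblasts, had 37.3 and 44.1 against 37.7 and 53.3, and Col6a3 had 31.5 and 34.4 against 27.5 and 37.5. Both collagen VI chains overlapped between genotypes, with Mboat7-/- replicate 2 the highest cortex, as it was for Col6a1 (22.3 and 25.2 against 21.3 and 33.1), which is adjacent to Col6a2.

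Matrix glycoproteins held the largest difference of a well-counted member. Postn, periostin, which is secreted by mesenchyme and binds collagen, had 7.43 and 10.3 CPM in Mboat7+/- and 18.3 and 20.6 in Mboat7-/- cortices, a log2 fold change of 1.13 ± 0.19. Fn1, fibronectin, the adhesive protein on which other matrix assembles, had 337 and 357 against 455 and 407, a log2 fold change of 0.31 ± 0.071. Sparc had 363 and 376 against 356 and 368, so that the member with the highest level per length overlapped between genotypes (-0.03 ± 0.058). The microfibril genes Fbn1 (0.42) and Fbn2 (0.61) did not overlap, and Fbln2 (0.22) did.

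The leucine-rich proteoglycans, small proteins that bind collagen fibrils, did not share a direction. Lum had 59.8 and 62.4 CPM against 70.7 and 76.7, higher without overlap, with a log2 fold change of 0.27 ± 0.081. Bgn had 84.9 and 79.6 against 69.7 and 85.8, which overlapped (-0.08 ± 0.10). Dcn, adjacent to Lum, also overlapped (-0.07 ± 0.22).

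Of the genes that process matrix, Mmp2, a gelatinase, had 58.6 and 65.3 CPM against 85.1 and 78.6, a log2 fold change of 0.40 ± 0.087. Lox, which crosslinks collagen and elastin, had 9.97 and 13.3 against 23.5 and 19.6, a log2 fold change of 0.89 ± 0.19. Neither overlapped, nor did Pcolce (0.26), an enhancer of procollagen cleavage. In contrast, the Lox relative Loxl1 had 27.3 and 23.1 against 26.9 and 25.6 and overlapped (0.06 ± 0.14).

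Signalling members did not overlap, and their median log2 fold change of 0.70 was the highest of the role groups. Cxcl12, the meningeal chemokine, had 106 and 93.7 CPM against 177 and 147, a log2 fold change of 0.70 ± 0.10. Pdgfra, the growth factor receptor of mesenchymal cells, had 73.8 and 64.1 against 119 and 91.2, a log2 fold change of 0.61 ± 0.13. Aldh1a2, the retinoic acid-synthesising enzyme of the meninges, had 0.0923 and 1.59 CPM (2 and 42 counts) against 4.60 and 4.29 (130 and 106 counts). One control cortex of Aldh1a2 was therefore under the floor of 3 counts while the other was 42, and the fitted log2 fold change of 2.35 ± 0.74 became 1.49 without the former, Mboat7+/- replicate 1. Without Mboat7+/- replicate 2 it was 5.52, which is no bound, since the control left then held 2 counts.

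Among the transcription factors, the forkhead genes of cranial mesenchyme had the largest differences. Foxc2 had 17.5 and 14.8 CPM against 41.3 and 22.8, a log2 fold change of 0.99 ± 0.25. Foxc1, needed for meningeal development, had 60.3 and 52.9 against 95.9 and 62.2, and Foxd1 had 47.2 and 47.1 against 79.9 and 52.8. All 3 were non-overlapping, yet each was higher in Mboat7-/- replicate 1 than in replicate 2. Prrx1, a factor of limb and craniofacial mesenchyme, had 73.5 and 90.6 against 82.3 and 89.8 and overlapped (0.07 ± 0.11). Tbx18, a factor of mural and meningeal cells (0.36), Twist1 (0.23) and Dnm3os (0.75) did not overlap, and Twist2 (0.22) did. Whether unstranded counting would mix reads of Dnm3os with those of Dnm3 cannot be told, as the strand setting of the counting is not given in the sources used here.

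The roles also differed in which Mboat7-/- cortex was higher. The median deviation from the control mean was 0.63 in replicate 1 and 0.15 in replicate 2 for the transcription factors and Dnm3os, and 0.82 and 0.56 for the signalling genes. Conversely, it was 0.14 and 0.34 for the fibrillar collagens, -0.13 and 0.43 for the other collagens, and -0.24 and 0.16 for the leucine-rich proteoglycans. Each value is from 1 cortex and has no test.

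At E12.5, the members differed less and unevenly. Of the 40 members tested, with Twist2 under the count filter at no more than 14 counts, 31 had a log2 fold change above 0 (51.2% of all 16326 genes), and the median was 0.13, against 0.005 over all genes. Both Mboat7-/- cortices exceeded both controls in 8 members, while 16.9% of all genes did so. These members were Col1a2, Col3a1, Col5a2, Col4a2, Lamc1, Loxl1, Cxcl12 and Tbx18. Both Mboat7-/- cortices lay below both controls in 2 members, Pcolce and Twist1 (15.2% of all genes). Col3a1 and Pcolce were separated by less than rounding. Replicate 1 had 282 CPM of Col3a1 in both genotypes, and replicate 2 had 7.68 CPM of Pcolce in both. No member was called by edgeR's quasi-likelihood test (0 of 40, background 0.0184%), by DESeq2 (0) or by edgeR's exact test (0), and the smallest adjusted p was 0.958. At an unadjusted p under 0.05 there were 3 members, Loxl1, Cxcl12 and Tbx18, against 4.11% of all genes in either direction and 2.76% higher.

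Individual cortices decided the E12.5 values. Summed levels were 2540 and 2210 CPM in Mboat7+/- and 2470 and 2650 CPM in Mboat7-/- replicates 1 and 2, so the groups overlapped. Mboat7+/- replicate 2 was the lowest cortex for 34 of 41 members and Mboat7-/- replicate 2 the highest for 24. Within batch 1 the median difference was -0.09, with 11 of 41 members higher in the Mboat7-/- cortex, and within batch 2 it was 0.39, with 37 of 41 higher, so the direction of the pooled median did not hold in batch 1. Without Mboat7+/- replicate 2 the median was 0.013, with 22 of 41 members higher, and without Mboat7+/- replicate 1 it was 0.28. The pooled SD of the per-cortex medians, 0.154, exceeded the median difference.

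Cxcl12 was the member with the clearest separation of the signalling genes at E12.5, with 54.6 and 49.3 CPM in Mboat7+/- and 56.9 and 74.2 in Mboat7-/- cortices (0.33 ± 0.13). Loxl1, which had overlapped at E11.5, had 10.4 and 9.35 CPM against 12.2 and 15.3 (0.48 ± 0.17). Tbx18 had 9.94 and 8.42 against 11.4 and 14.3 (0.49 ± 0.18). In each of these genes Mboat7-/- replicate 2 was the highest cortex, and neither control reached the lower Mboat7-/- value.

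Collagens had lower levels at E12.5 than at E11.5. Their E12.5 log2 fold changes were above 0, up to 0.31 for Col6a1, except for Col5a1 (-0.002). Col3a1 had 282 and 232 CPM against 282 and 300 (0.18 ± 0.11), Col1a1 had 128 and 95.3 against 122 and 130 (0.18 ± 0.13), and Col4a2 had 215 and 213 against 218 and 229 (0.06 ± 0.093). Col4a1 had 300 and 260 against 282 and 342 (0.15 ± 0.12). Only Mboat7+/- replicate 2 lay clearly lower for Col3a1 and Col1a1. Further, Col6a2 had 22.8 and 19.6 against 20.7 and 26.8, Col6a3 had 22.8 and 15 against 18.0 and 24.5, and Col12a1 had 5.90 and 3.98 against 5.16 and 6.22, all overlapping.

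Except for Cxcl12, the members with the largest E11.5 differences overlapped between genotypes at E12.5. Postn had 7.82 and 4.90 CPM against 5.33 and 9.89 (0.26 ± 0.30), and Hmcn1 had 3.17 and 2.73 against 2.30 and 4.24 (0.15 ± 0.32). Aldh1a2 had 1.82 and 1.30 against 1.60 and 3.13 (0.60 ± 0.38). In all 3, Mboat7-/- replicate 2 was highest and replicate 1 lay among or below the controls. Foxc2 had 4.66 and 2.54 against 2.73 and 3.88 (-0.12 ± 0.32), Lox had 16.7 and 7.68 against 13.7 and 15.5, and Pdgfra had 24.1 and 19.6 against 23.7 and 28.9.

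The remaining named members overlapped as well. Fn1 had 278 and 258 CPM against 269 and 262, Sparc 232 and 232 against 243 and 225, and Bgn 54.9 and 48.8 against 51.2 and 50.2. Lum had 45.6 and 36.8 against 40.4 and 41.2, Mmp2 had 17.8 and 15.9 against 18.2 and 17.6, and Prrx1 had 34.0 and 25.3 against 32.2 and 31.5. Fn1, Sparc and Bgn were within 0.05 of 0 on the log2 scale. Dnm3os, at 14 and 5 counts against 15 and 21, was too thinly counted at E12.5 for its log2 fold change of 0.80 ± 0.57 to be read closely.

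**Figure D3:**
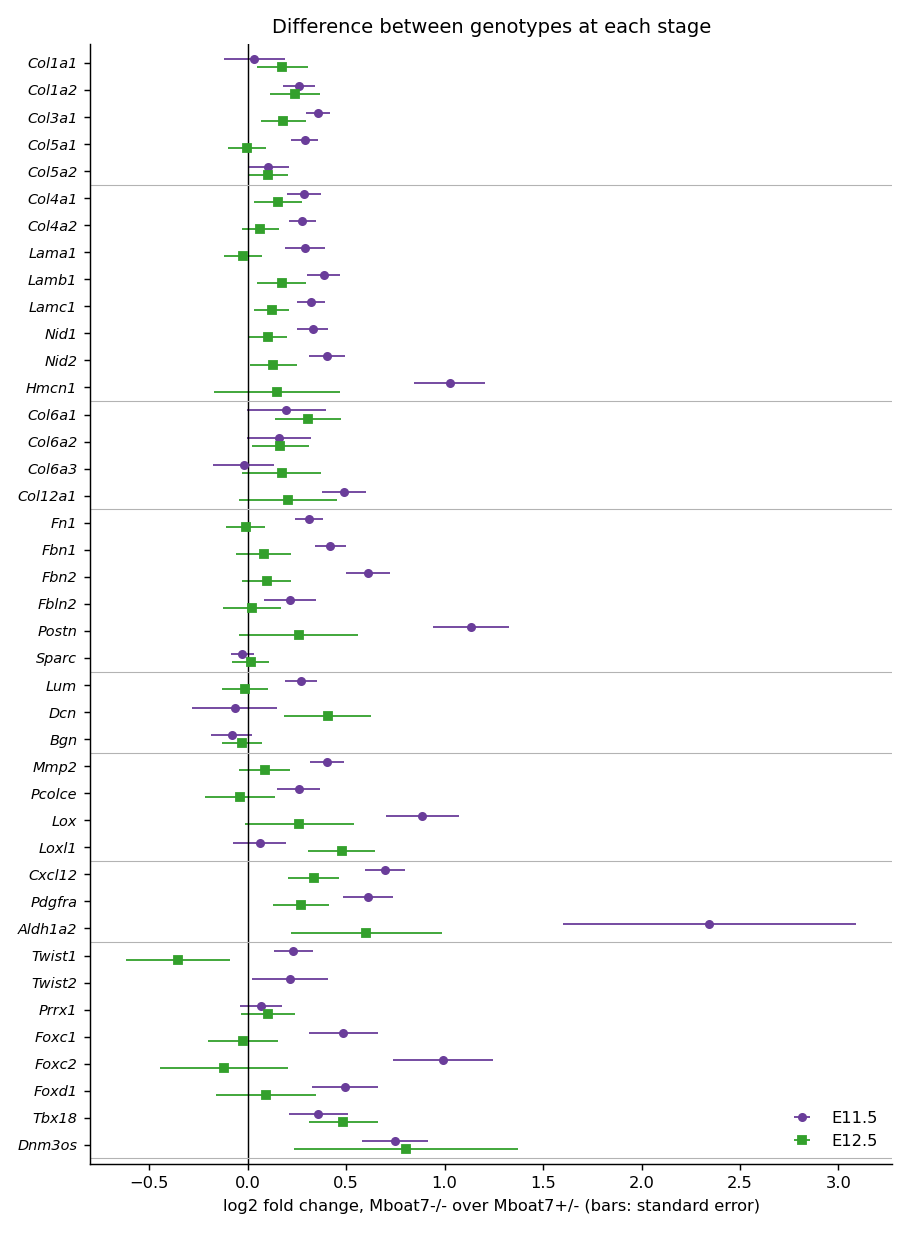
Log2 fold change of each member, Mboat7-/- over Mboat7+/- (x axis), at E11.5 (circles) and E12.5 (squares), with bars of 1 standard error from edgeR's quasi-likelihood fit and lines between role groups; Twist2 was not tested at E12.5. At E11.5 the values of 37 members lie right of 0, with Aldh1a2, Postn and Hmcn1 farthest, and at E12.5 those of 31 of 40.

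Taking the stages side by side, 28 of 40 members were above 0 at both, as were 29.3% of the 13614 genes tested at both. Without overlap, 6 members were higher at both, as were 4.75% of those genes. The 6 include Col3a1, whose E12.5 values in replicate 1 were equal between genotypes as given (282 CPM). Across the 40 members, the E11.5 and E12.5 log2 fold changes had a Spearman correlation of 0.207, a description over genes that share libraries and are not independent. When the 8 cortices were fitted together, adjusting for stage, 39 of 41 members were above 0 (background 51.3%), with a median of 0.25, and 0 were called by edgeR's quasi-likelihood test (background 0.0%), with 23 at an unadjusted p under 0.05 (background 11.4% in either direction and 6.71% higher) and a smallest adjusted p of 0.380. Cxcl12 had the smallest relative error among the signalling genes, 0.53 ± 0.10. When the difference between stages was itself tested, as the interaction of stage and genotype, the members' median was -0.28 (11 of 41 above 0, background 50.7%), which means a smaller genotype difference at E12.5. None was called (0 of 41, background 0.0%, smallest adjusted p 0.847 in edgeR's quasi-likelihood test), and 6 had an unadjusted p under 0.05 (background 5.68%), namely Col5a1, Hmcn1, Fn1, Fbn2, Twist1 and Foxc2. Thus a change of the genotype difference between stages was not shown for any member.

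The members are long transcripts, and fold changes of all genes moved with transcript length. Their median length was 5560 bases, against 3150 bases for all genes tested at E11.5, and 27 of the 41 were in the longest quartile. In that quartile the median log2 fold change at E11.5 was 0.13 over all genes and 0.36 over the members. In the shortest quartile it was -0.12 over all genes and 0.23 over 3 members, Dcn, Pcolce and Twist1. Across all genes the Spearman correlation of fold change with length was 0.390 for E11.5 and 0.222 for E12.5, while among the members it was 0.254 and 0.044. When the trend with length and GC content was removed, the E11.5 median of the members went from 0.31 to 0.25, with all genes at -0.010, and the quartile medians of the members ranged from 0.16 to 0.37. Hmcn1 then stood at 0.85, Dnm3os at 0.49 and Fbn2 at 0.44, while the shorter Postn (1.11), Foxc2 (1.07) and Aldh1a2 (2.39) moved little. Other long members lost a larger part, such as Fn1 (0.31 to 0.16), Lama1 (0.29 to 0.14) and Lamc1 (0.32 to 0.18). Col1a1 (-0.041), Col5a2 (-0.038) and Prrx1 (-0.10) went below 0, and Sparc went above it (0.02). The short Pcolce and Twist1 rose to 0.39 and 0.37. At E12.5 the median of the members went from 0.13 to 0.081.

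**Figure D4:**
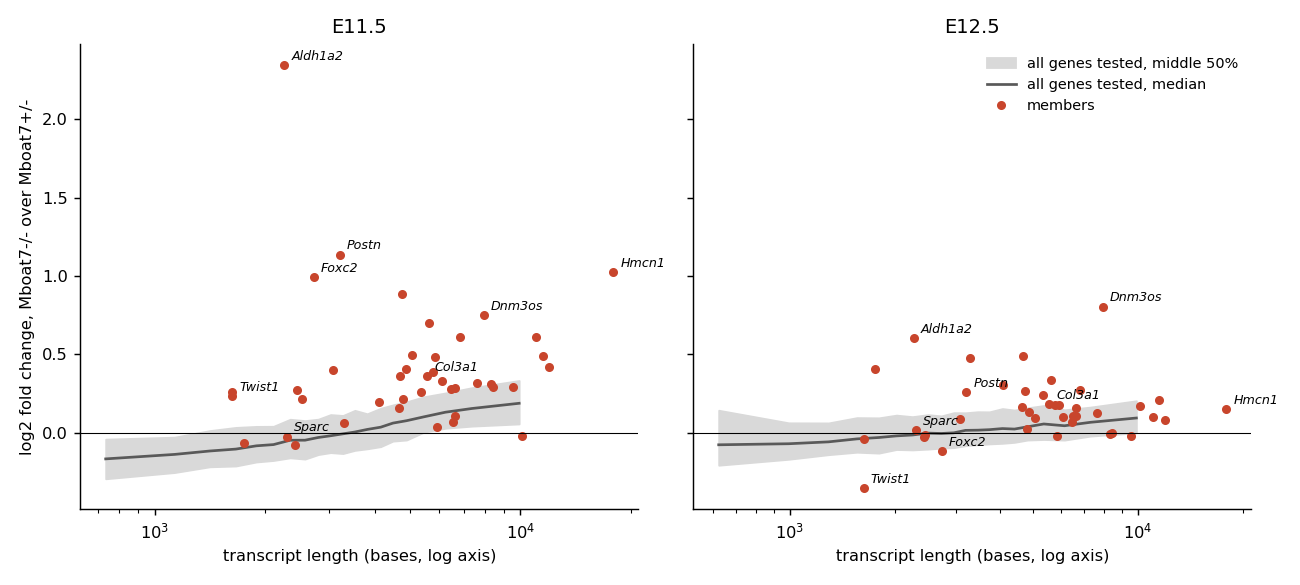
Log2 fold change, Mboat7-/- over Mboat7+/- (y axis), against transcript length in bases (x axis, log scale) at E11.5 and E12.5. The line and band give the median and the middle 50 percent of all genes tested in 20 bins of length, and points are the members; all-gene medians rise with length at both stages, and most E11.5 points lie above the line.

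Levels of the members were also compared with their E11.5 differences. The 10 members in the quartile of 5.83 to 26.7 CPM had a median of 0.55, the 10 in the next quartile 0.26 and the 20 in the highest quartile 0.30, and the lowest quartile held only Aldh1a2. Across members the correlation of fold change with mean CPM was -0.211 for E11.5 and -0.172 for E12.5. A higher level therefore did not go with a larger difference.

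Other genes of the same tissues were described by lists that do not contain the members. Of 72 other matrix genes tested at E11.5, 68 were above 0 (49.0% of all genes), with a median of 0.30. Without overlap, 44 were higher and 0 lower, against 23.1% and 23.3% of all genes. The most abundant were the basement membrane proteoglycan Agrn (0.10), the cartilage collagen Col2a1 (0.51) and Vcan (0.27). With the length and GC trend removed, Agrn stood at -0.011, Col2a1 at 0.48 and Vcan at 0.057. Counts and medians of this list and of the lists below are given without that removal. Of 43 further genes of meninges and other mesenchyme, 33 were above 0 with a median of 0.29, including the imprinted genes H19 (0.29) and Igf2 (0.25). Meg3, also among the most abundant, stood at 0.13. Without overlap, 21 genes of this list were higher and 5 lower. The 21 genes that fold and modify collagen had a median of 0.11, with 18 above 0, led by the collagen chaperone Serpinh1 (0.11). Of these 21 genes, 9 were higher and 1 lower without overlap. The 29 genes of TGF-beta and BMP signalling had a median of 0.09, with 20 above 0. Of these 29, 13 were higher and 3 lower without overlap, the latter with the abundant Id4 (-0.24). No gene of these lists was called by edgeR's quasi-likelihood test at either stage. At E11.5, 27, 16, 2 and 6 of them respectively were higher at an unadjusted p under 0.05 in that test. Over all genes this share was 7.94%, and the 2 of 21 genes that fold and modify collagen lay near it. At E12.5 the medians of these lists were 0.071, 0.081, 0.016 and 0.012.

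Markers of other tissues moved beside the members at E11.5. Cartilage and bone genes (among them Col2a1 and Col9a1, which are also on the list of other matrix genes) summed to 478 and 503 CPM in Mboat7+/- and 800 and 605 in Mboat7-/- cortices, with 9 of 10 tested above 0. Surface ectoderm genes such as Epcam and Krt8 summed to 76.9 and 70.6 against 101 and 84.1, with 10 of 14 above 0, and skeletal muscle genes to 8.26 and 10.9 against 19.2 and 11.7, with 3 of 6 above 0 and a lowest value of -0.74. Neural crest and glial lineage genes summed to 165 and 130 against 181 and 176, with 6 of 9 above 0. For each of these tissues the highest sum was in Mboat7-/- replicate 1. That cortex also had the highest sum of the transcription factors and Dnm3os (444 CPM), although Prrx1 was highest in Mboat7+/- replicate 2 (90.6 CPM). Of the defining genes, 1 of cartilage and 1 of muscle were at 0 in all E11.5 cortices.

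Summed vessel markers were higher in the Mboat7-/- cortices too, whereas most erythroid and cortical neural genes had log2 fold changes below 0. Endothelial genes summed to 553 and 514 CPM against 601 and 557, and pericyte and smooth muscle genes to 461 and 421 against 543 and 485, both without overlap. Of the endothelial genes 14 of 20 were above 0 (median 0.10), and 6 were higher and 0 lower without overlap. Of the pericyte and smooth muscle genes 11 of 14 were above 0 (median 0.16), and 5 were higher and 0 lower without overlap. Over all genes, 49.0% were above 0, and 23.1% were higher and 23.3% lower without overlap. Erythroid genes, chiefly the embryonic globins Hbb-y and Hba-x, summed to 6980 and 5260 against 3660 and 3890, and all 10 tested were below 0. Cortical neural genes summed to 6140 and 6460 against 4930 and 6230, with 16 of 17 below 0 and Mboat7-/- replicate 1 lowest. Microglial genes summed to 113 and 99.5 against 112 and 113, with a median of -0.024, and choroid plexus and hem genes to 455 and 434 against 400 and 404. The part of these other tissues in the members' differences was not tested.

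At E12.5 the summed cartilage, surface ectoderm and muscle markers were lower than at E11.5 in both genotypes. Cartilage genes summed to 117 and 124 CPM against 112 and 113, surface ectoderm genes to 9.12 and 10.1 against 11.2 and 9.09, and muscle genes to 3.89 and 3.89 against 3.25 and 2.56. The cartilage and muscle sums were thus lower in both Mboat7-/- cortices, without overlap, while the ectoderm sums overlapped. Most of the cartilage sum was Col2a1 (91.5 and 98.4 CPM against 84.9 and 90.0). Of 7 cartilage genes tested, 4 were above 0, with a median of 0.13, so the list did not follow its sum. Of the 12 muscle genes, 9 had no more than 10 counts in any E12.5 cortex and only 2 were tested. Erythroid genes summed to 5340 and 7770 against 5440 and 3830, so Mboat7+/- replicate 2, the lowest cortex for most members, was the highest for erythroid genes, and Mboat7-/- replicate 2 the reverse. Neural crest genes summed to 88.8 and 81.2 against 85.1 and 88.9, endothelial genes to 408 and 396 against 416 and 422, and pericyte genes to 296 and 284 against 285 and 323. Of these, the endothelial sums were higher in both Mboat7-/- cortices. Microglial genes (82.4 and 64.9 against 83.1 and 94.8) were also higher in both, had the same order of cortices as the summed members at the extremes, and 14 of 16 were above 0. Choroid plexus and hem genes summed to 379 and 382 against 354 and 501, and cortical neural genes to 6390 and 6610 against 6490 and 6230.

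**Figure D5:**
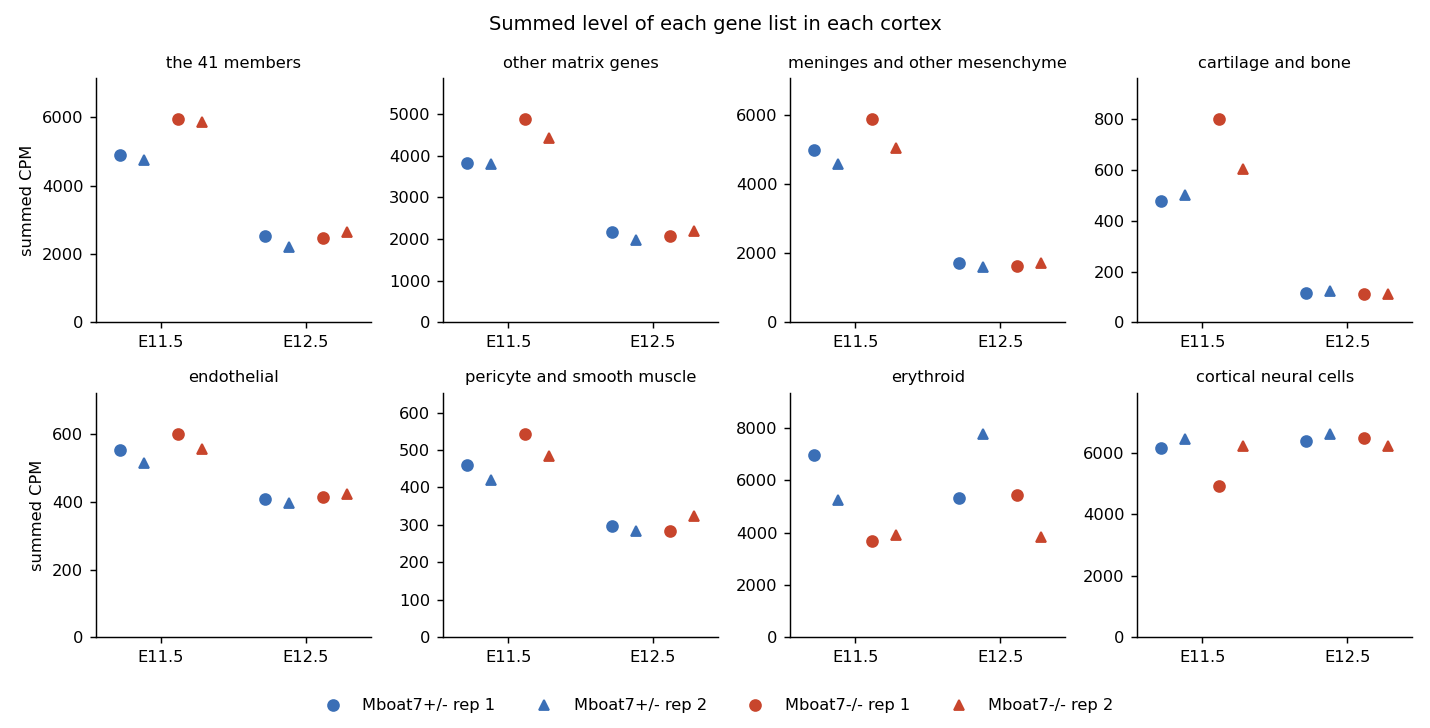
Summed CPM (y axis, from 0) of the 41 members and 7 other gene lists in each of the 8 cortices, by stage, genotype (colour) and replicate (symbol). At E11.5 the members, other matrix, other mesenchyme and cartilage lists are higher in both Mboat7-/- cortices and the erythroid list lower; at E12.5 the members sum to 2210 to 2650 CPM and the genotypes overlap.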

How the data were processed

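RNA of 8 dissected mouse cortices was measured as poly(A) RNA sequencing, with 2 embryos per genotype and stage. The authors deposited raw read counts per gene without normalization, in a table by symbol at E11.5 and by Ensembl identifier at E12.5. Per the labels' processing notes, HISAT2, Subread, mm10 and GRCm39 were used, with no role or version given, and other counting settings are not given in the sources used here. E12.5 identifiers were matched to symbols for 81.4% of genes with a count.

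The members and all gene lists were chosen with earlier results of these data known. Each stage was fitted alone on its whole table with edgeR 4.0.16 in R 4.3.3 (quasi-likelihood test after TMM normalization and filterByExpr at a minimum count of 10, prior count 0.125, p-values adjusted by Benjamini and Hochberg), and calls needed an adjusted p under 0.05 and a difference of at least 1 on the log2 scale. Fits over 8 cortices had stage, and its interaction with genotype, as terms. SEs are the absolute fold change over the square root of F. CPM used TMM-normalized library sizes, deviations per cortex used log2(CPM + 0.1), and levels per length used the longest GENCODE vM21 transcript. Trends with length and GC were removed by splines of 5 degrees of freedom, fitted on genes with a mean count of at least 20.

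Values in every cortex are given for members that differed by at least 1 on the log2 scale in either table and, per role, for the member with the highest mean CPM and those with the highest and lowest E11.5 fold change. Of each other list, counts, medians and at most its most abundant genes and its largest differences are named. Other cortex values were chosen after they were seen. On simulated counts with 200 genes changed, 132 (E11.5) and 159 (E12.5) were found by edgeR's quasi-likelihood test. Found meant an adjusted p under 0.05 in that test, without the fold threshold of a call. The changed genes were taken from better-counted ones and no length trend was added, so these are not detection rates of members. Alternatives were DESeq2 1.42.0, the exact test of edgeR, upper-quartile and RLE normalization, other filters and prior count, trend removal, the replicate number as a block, and each replicate left out.

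Chi-square per degree of freedom between replicates was 8.35 to 14.3, so each cortex was counted separately. The labels give the replicate number as a batch, and the deviations of same-numbered cortices correlated at 0.083 (E11.5) and -0.201 (E12.5). Floors cover counting error only. With 2 embryos per genotype, p-values rest on the spread across all genes.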

Additional observations from a re-analysis of the deposited data

Results flagged for a closer look

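In 2 members, every cortex labelled Mboat7-/- lay above both controls at E11.5 and below both at E12.5, for Pcolce by less than rounding. For Pcolce, which enhances the cleavage of procollagen, the log2 fold changes were 0.26 and -0.039. Replicate 2 had 7.68 CPM of Pcolce in both genotypes at E12.5, so a reversal between stages is not shown for this gene. The interaction of stage and genotype was -0.299, and its Benjamini-Hochberg adjusted p was 0.876 in the quasi-likelihood test of edgeR. For Twist1, a transcription factor of mesenchyme, the values were 0.23 and -0.35. Its interaction was -0.587, with an adjusted p of 0.856 in the same edgeR test. Neither difference passed the test, and both genes had far lower levels at E12.5.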

How the results depend on the processing

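At E11.5 the count of members called was 0 and became 2 with DESeq2 (12 of all 14935 genes), 2 with edgeR's exact test (41 of all genes) and 3 without a filter on low counts (41 of 18103 genes). Members at an adjusted p under 0.05 whatever their fold change then numbered 15, 13 and 21, beside 178, 176 and 317 of all genes, against 0 members in edgeR's quasi-likelihood test. With the replicate number as a block, 3 members were called (Hmcn1, Postn and Aldh1a2; 30 of all genes) and 21 passed an adjusted p under 0.05 (349 of all genes), whereas the block with length and GC trends removed left 0 called. The E11.5 median of 0.31 became 0.244 with the length trend removed, 0.254 with length and GC trends removed and 0.249 with the block as well. Leaving out 1 cortex at a time gave 0 to 5 members called, a median of 0.307 to 0.387 and 33 to 39 members above 0. Of these, Mboat7-/- replicate 2 mattered most: without it 5 members and 159 of all genes were called, and without Mboat7-/- replicate 1 only Postn and 22 of all genes.

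At E12.5 no alternative called a member, and the median lay between 0.050 (length trend removed) and 0.127 with all cortices, and between 0.013 and 0.284 with 1 left out, with 22 to 36 members above 0. The block changed no call of a member at E12.5, over both stages or in the interaction. Because same-numbered cortices deviated in opposite directions at E12.5, a crossed pairing was added after the data were seen, and it called 0 members and 25 of all genes, against 14 with the numbers as labelled and 3 without a block. Over both stages 0 members were called under each alternative, with a median of 0.195 to 0.281 on leaving out 1 cortex. For the interaction the median was -0.335 to -0.107, with 4 to 16 members above 0, on leaving out 1 cortex. The causes of these shifts were not tested.

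Single members moved by more than 1 SD in 35 of 450 recomputed values at E11.5 and 14 of 479 at E12.5, and in 21 of 164 and 19 of 160 on leaving out 1 cortex. With 1 cortex left in a genotype, that cortex is assumed to vary like the others. Members under about 1 CPM, such as Dnm3os and Twist2 at E12.5, are limited by depth.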
